A study of Mus musculus with 7 samples.

Results

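The regions described here were 1302 broad accessible stretches of the mouse genome, each at least 1.5 kb long and made of 3 or more neighbouring 500 bp bins. The genome (build mm9) was divided into bins of 500 bp, and each sequenced fragment was placed in the bin that held its midpoint. A bin was kept when it held at least 50 input reads with each of 3 promoters, and a member was an unbroken run of 3 or more kept bins. The 1302 runs held 4319 bins and 2159.5 kb, out of 21872 runs of any length with 30914 kept bins, so they made up 5.95% of runs. A further 6025 runs had 2 bins and 14545 were single bins. Members were chosen by their input counts, and reporter counts had no part in the choice.

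The study measured reporter activity of DNase hypersensitive sites in P5424 cells, a mouse T cell line, with CapStarr-seq, in which captured genomic DNA is cloned into a reporter plasmid. The 4 reporter libraries were SCP1, pPGK_PMA_I, pPGK and pR-Ea, named after the promoter in the plasmid, and the 3 input groups were those of SCP1, pPGK and pR-Ea, giving 7 samples with 1 library in each group. SCP1 is a synthetic core promoter and pPGK the promoter of phosphoglycerate kinase. The labels do not say what pR-Ea stands for. PMA, a phorbol ester, and ionomycin, a calcium ionophore, are used together to mimic signalling from the T cell receptor. The treatment field of every sample names them, so it is the title of pPGK_PMA_I that sets it apart as stimulated. All libraries came from 1 established cell line, and no group was replicated, so the differences below are between these libraries and carry no p-value.

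DNase hypersensitive sites are places where chromatin is open and proteins can reach the DNA, and they hold promoters, enhancers and silencers. An enhancer raises transcription from a promoter and a silencer lowers it, and both are usually short, so a broad open stretch can hold several separate elements. In a self-transcribing reporter assay a fragment is cloned into the transcribed part of the plasmid and therefore appears in the RNA that it regulates. Its reads in RNA relative to its reads in the plasmid input rank it against the other fragments in the pool.

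Activity is the log2 ratio of reporter reads to input reads, with a pseudocount of 1, after both were scaled to their reads in all kept bins. Its 0 is therefore the average of the pool and not a neutral insert, and a bin below input is not shown to be a silencer. A bin was called above or below input when the ratio was at least 2-fold, the exact 95% interval of the ratio excluded equality, a 95% interval from the standard error over distinct fragment positions (SE) excluded it as well, and both counts together held at least 50 reads. The exact (Clopper-Pearson) interval covers counting error only, and the SE treats positions as independent. Fragments were listed as 315 bp long on nearly every line, which need not be the length of each insert, and midpoints rest on it. Fragments of this length near a border between bins reach into the next bin, so neighbouring bins are not independent. The median member bin held 730 reporter and 607 input reads with SCP1, 583 and 236 in pPGK_PMA_I, 563 and 236 with pPGK, and 646 and 231 with pR-Ea. Both pPGK libraries share 1 input.

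Most runs were short. Of the 1302 runs, 1050 had 3 bins, 187 had 4 bins, 43 had 5 bins and 22 had 6 or more, with the longest at 20 bins (10 kb). Every chromosome from 1 to 19 and X held members, with the most on chromosome 2 (109 runs) and chromosome 11 (104 runs), and Y held 0. The counts that chose the members were higher in their bins than in other kept bins, with median inputs of 681 against 478 reads for SCP1, 250 against 182 for pPGK and 255 against 180 for pR-Ea. At the threshold, 136 member runs had a lowest bin of 50 to 54 reads, and 109 runs of 2 bins missed membership by a neighbouring bin that held 45 to 49 reads. No part of these counts is tested below. Activity divides by the same input counts, so its values are descriptions, while the change between pPGK_PMA_I and pPGK compares reporter counts alone.

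Most bins of the broad stretches lay within 2-fold of input. With SCP1, 201 of 4286 member bins with enough reads were called above input (4.69%, against 3.83% of all kept bins) and 490 below (11.4%, against 14.1%). In pPGK_PMA_I, 141 of 4307 were above (3.27%, against 7.35%) and 477 below (11.1%, against 9.51%). With pPGK, 131 of 4310 were above (3.04%, against 3.76%) and 385 below (8.93%, against 9.54%). With pR-Ea, 31 of 4295 were above (0.722%, against 0.81%) and 258 below (6.01%, against 8.34%). Bins below input outnumbered those above in all 4 libraries, though not in pPGK_PMA_I when no filter on the mapping score was used. The median log2 activity of member bins was -0.07 with SCP1, -0.09 in pPGK_PMA_I, 0.02 with pPGK and 0.08 with pR-Ea, against -0.15, 0.06, 0.06 and -0.03 over all kept bins.

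The largest gap to narrower sites was in pPGK_PMA_I. There the share of bins above input was 3.27% in members, 5.29% in runs of 2 bins and 10.3% in single bins. The corresponding shares with pPGK were 3.04%, 3.33% and 4.33%. With SCP1 they were 4.69%, 3.80% and 3.60%, the opposite order. Among members, runs of 6 or more bins had the largest share below input, at 18.5% with SCP1, 24.7% in pPGK_PMA_I, 17.4% with pPGK and 9.14% with pR-Ea, over at most 206 bins. These bins come from 22 runs, and the runs of 19 and 17 bins held 10 and 8 of the 36 below input with SCP1. At their median bin 27.8% of pPGK input was left out for low mapping quality, against 1.32% in runs of 3 bins. The part of this was not tested.

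The counts in the pPGK libraries depend on the scaling and on mapping quality. Scaling to reads at all used positions moved the median of all kept bins to -0.28 in pPGK_PMA_I and -0.12 with pPGK, and the member splits to 37 above and 875 below in pPGK_PMA_I (2.08% and 17.1% of all kept bins) and to 60 and 542 with pPGK (1.74% and 12.8%). With the median of all kept bins set to 0, SCP1 had 303 member bins above and 383 below, against 5.88% and 11.0% of all kept bins. With no filter on the mapping score, pPGK_PMA_I had 780 above and 546 below of 4317, which turns the order of both sides round, as over all kept bins (26.7% and 8.03%).

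A run that held both a bin above and a bin below input in 1 library was rare. There were 9 such mixed runs of 1302 with SCP1 (0.691%), 12 in pPGK_PMA_I (0.922%), 4 with pPGK (0.307%) and 0 with pR-Ea. Runs with bins above and none below numbered 144, 115, 99 and 29 in that order of libraries. Those with bins below and none above numbered 315, 285, 243 and 165, and the other runs had no called bin. Where a run had a call, it was usually in 1 bin only: with SCP1 118 runs had a single bin above and 219 a single bin below. Runs whose bins were all above input numbered 7 with SCP1, 1 in pPGK_PMA_I, 3 with pPGK and 0 with pR-Ea, and runs whose bins were all below numbered 29, 22, 21 and 21. The uniformly high runs were named after their values were seen. In pPGK_PMA_I it was chromosome 1, 5062001 to 5063500 (1.08 to 1.30), and with pPGK chromosome 2, 163527001 to 163528500 (1.41 to 1.93), chromosome 13, 9763001 to 9764500 (1.05 to 1.57), and chromosome 15, 93202501 to 93204000 (1.08 to 1.60). The run on chromosome 2 was high throughout with SCP1 as well, at 2.78 to 3.51. The runs on chromosomes 1, 2, 13 and 15 had 91.8%, 86.3%, 0% and 66.5% of pPGK input left out at their median bin. Over all member bins the median was 1.99%. These reads were at positions of low mapping quality, and their part was not tested. At a threshold of 1.5-fold the mixed runs numbered 80 with SCP1, 142 in pPGK_PMA_I, 71 with pPGK and 85 with pR-Ea, and leaving out the SE over positions gave 11, 12, 6 and 0.

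**Figure D1:**
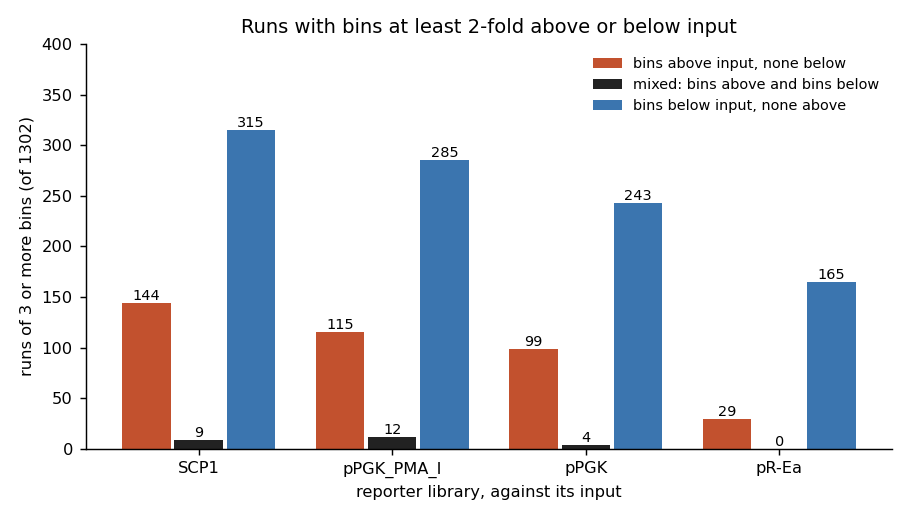
Number of the 1302 runs (y axis) by the calls of their bins in each reporter library against its input (x axis); orange bars have bins above input and none below, black bars have both, and blue bars have bins below and none above. Mixed runs number at most 12 in a library, while runs with bins below and none above number 165 to 315.

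In the mixed runs described here, bins within 1.5 to 2.5 kb were called on opposite sides of the average of the pool. Counting distinct positions in place of reads, with fewer bins tested, gave 0 mixed runs with SCP1, 1 in pPGK_PMA_I and 0 with pPGK. Chromosome 4, 108132001 to 108133500, was mixed with SCP1. Its first bin had 994 reporter and 304 input reads (log2 1.36, SE 0.25), its middle bin 14546 and 7022 (0.71, SE 0.08), and its last bin 176 and 312 (-1.17, SE 0.38). The output with SCP1 thus differed by 2.53 on the log2 scale from one end of the stretch to the other (SE 0.46). With pR-Ea the ends stood the other way round, at -0.53 (SE 0.29) in the first bin and 0.39 (SE 0.24) in the last, with neither called. Most of the reads of this run lay in its middle bin, which was called in no library.

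Chromosome 5, 136343501 to 136345000, was also mixed with SCP1. Its first bin held 65 reporter and 238 input reads (log2 -2.20, SE 0.51) and its middle bin 536 and 177 (1.25, SE 0.31). Neither bin was called with another promoter, where the run spanned 0.38 in pPGK_PMA_I, 0.28 with pPGK and 0.87 with pR-Ea. The run at chromosome 4, 132640501 to 132642500, had its 4 bins at -1.38 (SE 0.46), -0.30, 0.47 and 1.5 (SE 0.24) with SCP1, each higher than the one before. Its last bin was above input with pPGK as well (1.19, SE 0.24), while its first bin was at -0.09 (SE 0.13).

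Chromosome 5, 33971501 to 33973000, was mixed with pPGK and in pPGK_PMA_I. The first bin had 1322 reporter reads in pPGK_PMA_I and 1058 with pPGK over 210 shared input reads, which gave log2 activities of 1.27 (SE 0.14) and 1.06 (SE 0.14). The middle bin had 887 and 1115 reporter reads over 972 input reads, at -1.51 (SE 0.16) and -1.07 (SE 0.17). With SCP1 the first bin was above input too (1.12, SE 0.27), and the middle bin was at -0.53 (SE 0.12). With pR-Ea the same order held at a smaller size, 0.29 (SE 0.14) against -0.70 (SE 0.09).

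Chromosome 19, 6004001 to 6005500, was mixed with pPGK alone, with 2129 reporter and 1779 input reads in its first bin (log2 -1.01, SE 0.15) and 13088 and 2312 in its middle bin (1.23, SE 0.08). The same bins were at 0.81 (SE 0.17) and 1.0 (SE 0.17) with SCP1, so the first bin lay on opposite sides of 0 with the 2 promoters. Of the pPGK reporter reads in these bins, 83.0% and 61.2% were at positions left out for low mapping quality, and their part in the difference was not tested. Chromosome 5, 102063001 to 102065500, had its first bin and the third below input with pPGK, at -1.02 (SE 0.29) and -1.12 (SE 0.32), and the fifth above, at 1.25 (SE 0.25), again with 87.6% to 97.7% of pPGK reporter reads left out across its bins. Chromosome 8, 13606501 to 13609000, had the second bin at 1.25 (SE 0.07) and the fourth at -1.07 (SE 0.22) with pPGK. At the median bin of that run 65.4% of pPGK input reads were left out, and their part was not tested. Chromosome 8, 128092001 to 128094000, had its second bin at 1.19 (SE 0.23) and its last at -1.94 (SE 0.07) in pPGK_PMA_I.

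**Figure D2:**
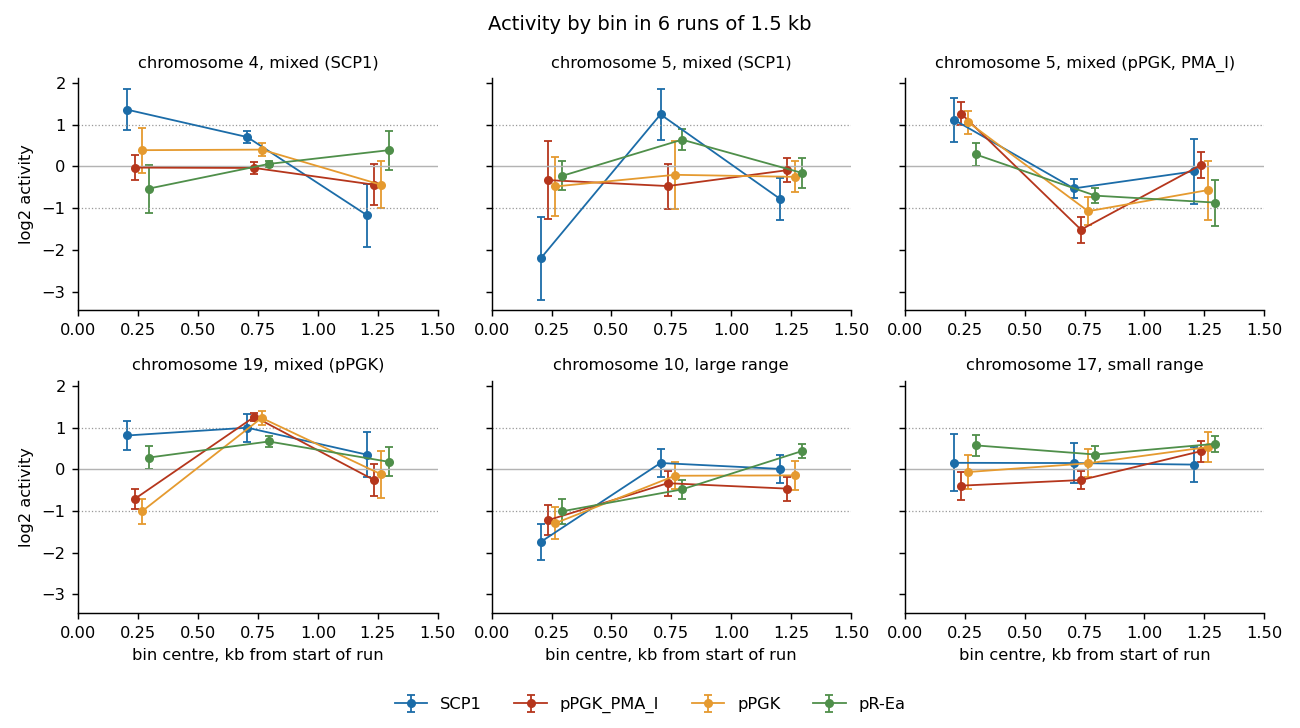
Log2 activity (y axis) of the 3 bins of 6 runs against the distance of the bin centre from the start of the run in kb (x axis); colours are reporter libraries, points are offset sideways for legibility, bars are 95% intervals over positions and dotted lines mark 2-fold. In the run on chromosome 4 SCP1 goes through 1.36, 0.71 and -1.17, and the run on chromosome 17 chosen for its small range stays between 0.11 and 0.15 with SCP1.

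Below the level of calls, bins within a run still differed in output. The range from the lowest to the highest bin of a run had a median of 0.84 on the log2 scale with SCP1, 0.93 in pPGK_PMA_I, 0.83 with pPGK and 0.72 with pR-Ea. A range of at least 1 was found in 522 runs with SCP1 (40.1%), 594 in pPGK_PMA_I (45.6%), 489 with pPGK (37.6%) and 376 with pR-Ea (28.9%), and a range of at least 2 in 83, 82, 63 and 29 runs. The SD of log2 activity among bins of the same run was 0.61 with SCP1, 0.62 in pPGK_PMA_I, 0.58 with pPGK and 0.47 with pR-Ea. The SD between runs, after the within-run part was taken out, was 0.55, 0.45, 0.48 and 0.39. The root mean square SE over positions was 0.31, 0.25, 0.28 and 0.19, so the spread within runs was about as large as that between runs and larger than the SE. In the 1675 bins with 200 or more input reads in every input, the within-run SD was 0.50 with SCP1 and 0.48 with pPGK, and the between-run SD 0.59 and 0.56.

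Steps of at least 2-fold between neighbouring bins were found at 442 of 2969 borders with SCP1 (14.9%, against 13.6% of all borders between kept bins). They were found at 550 of 3003 in pPGK_PMA_I (18.3%, against 15.2%), 430 of 3006 with pPGK (14.3%, against 12.9%) and 297 of 2980 with pR-Ea (9.97%, against 8.41%). Neighbouring bins 500 bp apart had activities that correlated across bins with Pearson's r of 0.53 with SCP1, 0.44 in pPGK_PMA_I, 0.50 with pPGK and 0.49 with pR-Ea. For bins 1000 bp apart r was 0.37, 0.23, 0.30 and 0.28. It did not keep falling with distance, at 0.43, 0.25, 0.33 and 0.46 for 1500 bp and 0.50, 0.44, 0.51 and 0.61 for 2000 bp. Only longer runs give such pairs, at most 407 and 156 of them. In runs of 2 bins the r between the pair was 0.61, 0.61, 0.63 and 0.65. These bins come from the same library and share part of their inserts at 500 bp, so r is a description.

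Among the 139 runs with 200 or more input reads in every bin and input, the steepest contrasts were not only between strong and weak ends. Chromosome 7, 38869501 to 38871000, had a deep middle bin. With pPGK that bin held 178 reporter and 436 input reads (log2 -2.56, SE 0.30), between -0.50 (SE 0.35) in the first bin and 0.55 (SE 0.16) in the last. In pPGK_PMA_I the bins followed the same order at -0.66, -2.60 and 0.56, and with SCP1 at -0.38, -1.35 and 0.43. With pR-Ea the middle bin was at -0.65 (SE 0.12) and the first at -0.58 (SE 0.13).

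Chromosome 2, 164530501 to 164532500, had 2 of 4 bins above input with SCP1, 1 in pPGK_PMA_I, 2 with pPGK and 0 with pR-Ea, and none below. The second bin had 9879 reporter and 1168 input reads with SCP1 (log2 2.73, SE 0.12) and 5711 and 717 with pPGK (1.72, SE 0.15), and the third bin was at 0.18 (SE 0.11) and 0.33 (SE 0.11). Low mapping quality left out 42.4% of SCP1 and 38.7% of pPGK reporter reads in the second bin, against 5.24% and 8.06% in the third. The part of these reads was not tested. With pR-Ea the third bin was the highest of the 4, at 0.76 (SE 0.05). Chromosome 10, 80783001 to 80784500, had a first bin below input in every library, at -1.74 (SE 0.22) with SCP1, -1.22 (SE 0.18) in pPGK_PMA_I, -1.29 (SE 0.20) with pPGK and, with pR-Ea, -1.01 (SE 0.15), and no call in its other bins. Chromosome 3, 21975001 to 21976500, was level with SCP1, at 0.44, 0.67 and 0.70, and graded with pPGK, at -1.08 (SE 0.21), -0.07 (SE 0.35) and 0.98 (SE 0.25). The most even run with SCP1 was chromosome 17, 51971501 to 51973000, whose bins lay at 0.15, 0.15 and 0.11, a range well under the SE of 0.41. With pPGK the same bins lay at -0.07 (SE 0.21), 0.14 (SE 0.17) and 0.53 (SE 0.18).

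The promoters shared the level of a run more than the pattern within it. Across runs, mean activities with pPGK and SCP1 correlated with r = 0.78 (1301 runs), while the deviations of bins from their run mean correlated with r = 0.47 (4284 bins). For pR-Ea and SCP1 the values were 0.60 and 0.32, and for pR-Ea and pPGK 0.65 and 0.41. With 200 or more input reads in every input, pPGK and SCP1 had 0.83 across 692 runs and 0.55 within them. In runs of 3 bins the highest bin was the same with pPGK and SCP1 in 559 of 1044 runs (53.5%), with pR-Ea and SCP1 in 475 of 1044 (45.5%), and with pR-Ea and pPGK in 511 of 1046 (48.9%). These promoters have separate inputs and reporter libraries. Averaging over bins lowers the error of a run mean, and how much of the gap this makes was not tested.

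**Figure D3:**
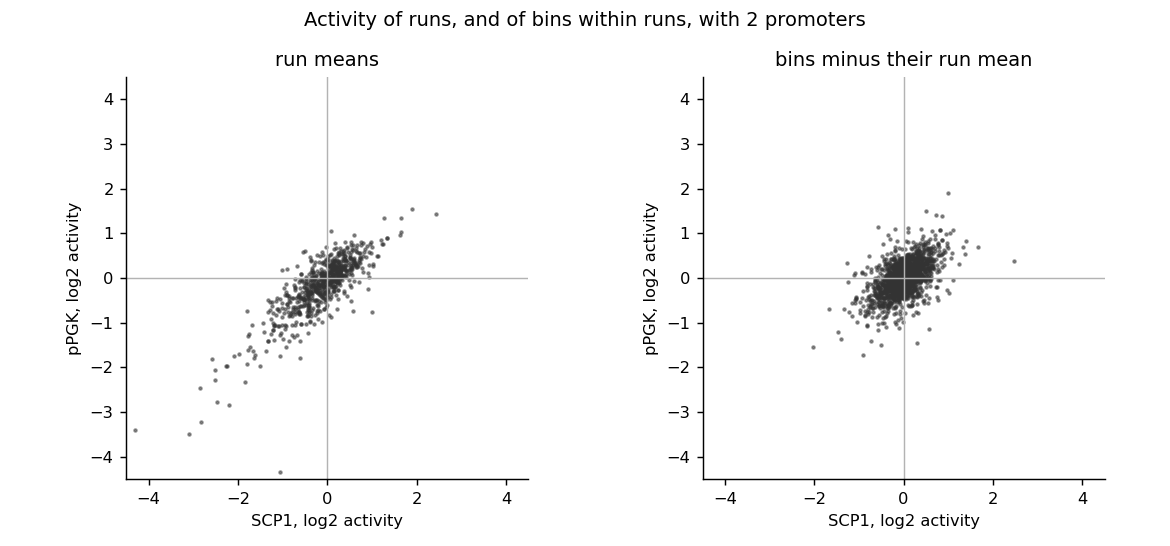
Log2 activity with pPGK (y axis) against SCP1 (x axis) for run means (left) and for bins minus the mean of their run (right), in member bins with 200 or more input reads in every input; each point is a run or a bin. Pearson's r is 0.83 for run means and 0.55 for bins within runs.

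Few bins were called alike with all 3 promoters. Of the 4319 member bins, 98 in 63 runs were below input with SCP1, pPGK and pR-Ea (2.27%, against 3.51% of all kept bins), and 2 bins were above input with all of them (0.0463%, against 0.0388%). These were named after their values were seen, because the count is small. One was chromosome 2, 167364501 to 167365000, at 1.03 (SE 0.22) with SCP1, 1.59 (SE 0.15) in pPGK_PMA_I, 1.47 (SE 0.19) with pPGK and, with pR-Ea, 1.11 (SE 0.14). The other was chromosome 6, 3082501 to 3083000, at 1.08 (SE 0.34), -0.17 (SE 0.41), 1.08 (SE 0.17) and 1.28 (SE 0.27) in the same order. The lowest of the shared bins, by the mean of the 3 promoters, was chromosome 8, 122585501 to 122586000, the last of 3 bins. It held 52 reporter and 1323 input reads with SCP1 (log2 -4.99, SE 0.52), 52 and 858 in pPGK_PMA_I (-5.40, SE 0.56), 29 and 858 with pPGK (-6.11, SE 0.61) and 161 and 668 with pR-Ea (-3.49, SE 0.21). Chromosome 15, 36859501 to 36860000, was at -3.06 (SE 0.57), -4.34 (SE 0.47), -5.77 (SE 0.51) and -2.68 (SE 0.25) in the same order of libraries. Chromosome 5, 117400001 to 117400500, was at -5.08 (SE 0.43), -2.17 (SE 0.46), -2.89 (SE 0.41) and -1.79 (SE 0.12). Chromosome 11, 63233001 to 63233500, was called below input with SCP1 on no reporter read and 102 input reads, but 100% of its SCP1 reporter reads were at positions left out for low mapping quality in another file, so no fold is given.

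At the other end, the strongest bins were promoter-dependent in size. Chromosome 9, 111551001 to 111551500, had 10761 reporter and 1005 input reads with SCP1 (log2 3.07, SE 0.13). It was at 1.34 (SE 0.11) in pPGK_PMA_I, 1.65 (SE 0.14) with pPGK and, with pR-Ea, 0.63 (SE 0.08). The bin before it, from 111550501 to 111551000, was first in both pPGK libraries by the end of its SE interval nearest to 0, though not by its value, at 1.98 (SE 0.04) in pPGK_PMA_I and 2.12 (SE 0.04) with pPGK. Counted on the minus strand alone, this bin was at -0.20 in pPGK_PMA_I and -0.21 with pPGK. The bin at chromosome 2, 163527501 to 163528000, was at 3.51 (SE 0.43) with SCP1, 1.43 (SE 0.27) in pPGK_PMA_I, 1.93 (SE 0.19) with pPGK and, with pR-Ea, 0.29 (SE 0.19). Chromosome 1, 130487501 to 130488000, reached 2.74 (SE 0.10) with SCP1 on 33905 reporter reads, and was at 0.41, 0.76 and -0.14 in the other libraries in the same order. With pR-Ea the leading bin was chromosome 7, 87833001 to 87833500, with 519 reporter and 53 input reads (1.82, SE 0.23), which was called in no other library. Of the pPGK reporter reads, 85.3%, 40.2% and 84.7% were at left-out positions in the pair of bins on chromosome 9 and the bin on chromosome 2. The part of these positions was not tested.

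The 5 longest runs differed in how even they were. The longest, chromosome X, 166428001 to 166438000, had 20 bins, of which 3 were above input with SCP1 and none with pPGK. Its bin at 166436001 to 166436500 held 3823 reporter and 435 input reads with SCP1 (log2 2.79, SE 0.42), while the bin after it was at -0.35 (SE 0.53). In pPGK_PMA_I and with pPGK the same high bin was at 0.33 (SE 0.18) and 0.44 (SE 0.11). Chromosome 14, 13970501 to 13977500, had no call in any of its 14 bins, with ranges of 0.99 with SCP1, 0.76 in pPGK_PMA_I, 0.52 with pPGK and 0.66 with pR-Ea. The run at chromosome X, 137584001 to 137590500, had no call in its 13 bins with SCP1 or pR-Ea, 5 bins below input in pPGK_PMA_I and 4 with pPGK. At the median bin of the longest run, 75.7% of the input reads of the pPGK file were at positions left out for low mapping quality, and their part was not tested.

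The position of a bin within its run went with its output in the pPGK libraries. In the 1049 runs of 3 bins with enough reads, the middle bin was lower than the mean of the outer pair by a median of 0.29 on the log2 scale in pPGK_PMA_I, and by 0.13 with pPGK. The middle bin was the lowest of the 3 in 468 runs in pPGK_PMA_I (44.6%) and in 396 with pPGK (37.8%), and the highest in 143 and 212. With SCP1 the median difference of middle minus outer bins was 0.03 over 1045 runs, with the middle bin lowest in 280 (26.8%), and with pR-Ea it was 0.00 over 1047 runs, with the middle lowest in 299 (28.6%). Longer runs had the same pattern in pPGK_PMA_I, where inner minus outer bins had a median of -0.33 in 186 runs of 4 bins and -0.38 in 42 runs of 5 bins, against -0.13 and -0.24 with pPGK. The differences were 0.08 and 0.15 with pR-Ea, and -0.01 and 0.03 with SCP1.

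Middle bins also held more reads. In runs of 3 bins the median input of the pPGK libraries was 374 reads in the middle bin, against 203 and 177 reads in the first and last bins. Input counts chose the members and are the denominator of activity, so the dip in activity is a description. The change between both pPGK reporters has no input in it, and it was lower in the middle as well. The change was lower in the middle bin than in the outer pair by a median of 0.14, and the middle bin was the lowest of the 3 in 480 of 1047 runs (45.8%) and the highest in 172. The dip was -0.14 in the 713 runs whose middle bin had the higher pPGK input and -0.14 in the 334 runs where it did not. It was -0.13 in the 755 runs in which every bin had under 20% of its pPGK reporter reads left out. Counting distinct positions in place of reads gave 0.00549, with no dip.

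**Figure D4:**
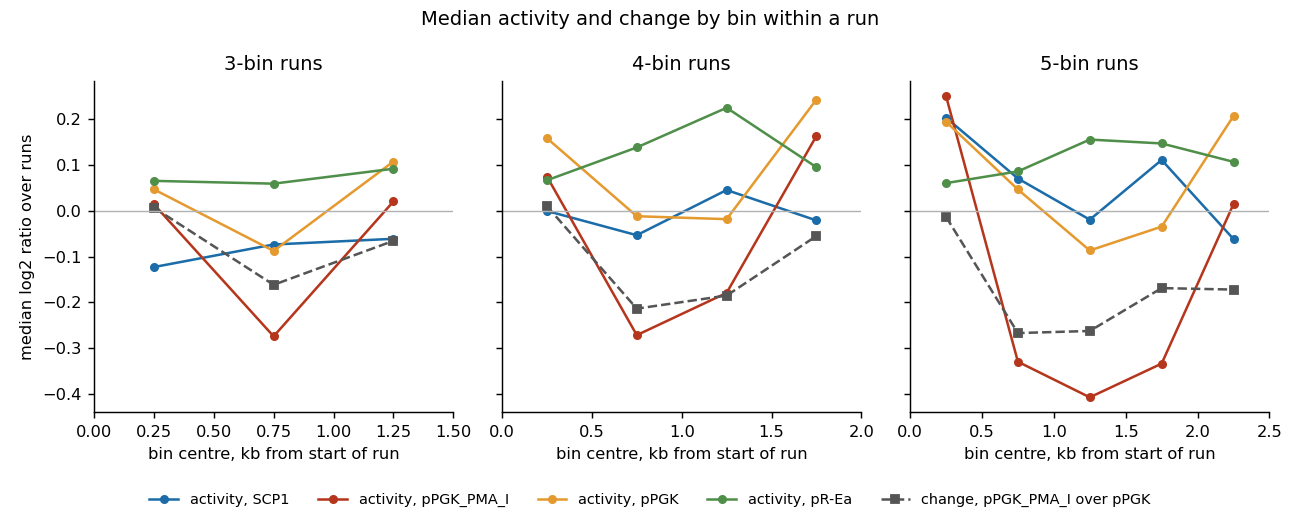
Median log2 activity by reporter library, and median log2 change of pPGK_PMA_I over pPGK (dashed), on the y axis, against the distance of the bin centre from the start of the run in kb, for runs of 3, 4 and 5 bins. Medians in pPGK_PMA_I are lowest in inner bins (-0.27 in the middle of 3-bin runs), while those with pR-Ea stay between 0.06 and 0.22.

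The change in pPGK_PMA_I was small in most member bins, and their median lay below that of other sites. Of 4306 member bins with enough reads, 15 were called higher than with pPGK (0.348%, against 0.76% of all kept bins) and 53 lower (1.23%, against 0.484%). The median log2 change was -0.08 in member bins, against 0.05 over all kept bins, and it was 0.00 in runs of 2 bins and 0.13 in single bins. The quartiles in members were -0.29 and 0.14, so most bins moved little. By length of run the median was -0.08 in runs of 3 bins, -0.11 in runs of 4 and -0.17 in runs of 5, and -0.06 in runs of 6 or more. Scaling to reads at all used positions lowered the median of all kept bins to -0.11 and that of members to -0.24, a constant shift that by construction keeps the gap of -0.13 between them. That scaling called 12 member bins higher and 91 lower, against 0.377% and 0.913% of all kept bins. With each file's own score the order of the calls turned round, with 38 member bins higher and 25 lower, against 296 and 107 of 30816 kept bins. With no filter on the mapping score the sign of the member median turned, to 0.30, against 0.44 over all kept bins, and 127 member bins were higher and 332 lower, against 5.52% and 3.03% of all kept bins. Counting distinct positions in place of reads made the gap between members and all kept bins -0.035.

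Depth moved with this change. In member bins whose lowest input held 50 to below 100 reads the median change was 0.02, and it was -0.03 from 100 to below 200, -0.11 from 200 to below 500 and -0.20 at 500 or more. Over all kept bins the medians were 0.14, 0.07, -0.01 and -0.07, so members lay lower than the whole at each depth, and the part of depth in the change was not tested. Members also had more input than other bins.

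**Figure D5:**
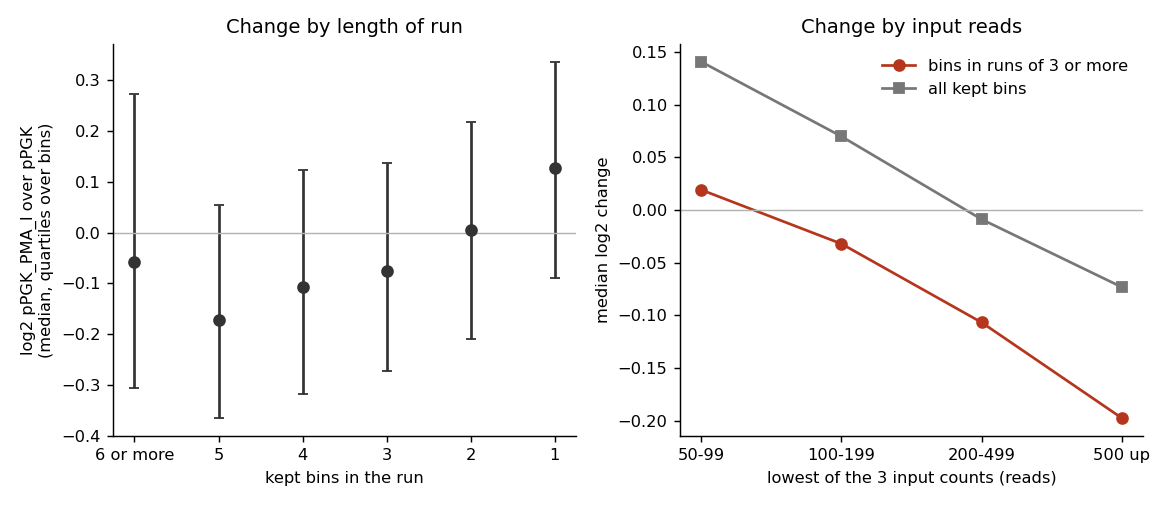
Left, median log2 change of pPGK_PMA_I over pPGK (y axis, bars are quartiles over bins) by the number of kept bins in the run (x axis). Right, the median change (y axis) by the lowest of the 3 input counts in reads (x axis) for bins in runs of 3 or more (circles) and all kept bins (squares). The median is 0.13 in single bins and -0.08 in runs of 3 bins, and it is -0.20 in member bins with 500 or more reads.

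The change was also graded by activity with SCP1, a library that shares no reads with either side of it. In the 488 member bins below input with SCP1 the median change was 0.08, with 11 bins higher and 3 lower (152 and 13 of 4232 over all kept bins). In the 3590 bins with no SCP1 call it was -0.09, with 4 higher and 36 lower (80 and 100 of 25274), and in the 201 bins above input with SCP1 it was -0.25, with 0 higher and 7 lower (2 and 18 of 1177). Over all kept bins the medians were 0.20, 0.03 and -0.05 in the same order, a gradient in the same direction. The calls of pR-Ea gave 0.09 in 256 member bins below input, -0.09 in 4002 with no call and -0.12 in 31 above. Over all kept bins these medians were 0.226, 0.039 and 0.035, so there bins with no call and bins above hardly differed.

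Within a run the change was more even than activity. Its median range over the bins of a run was 0.47, and its SD was 0.32 within runs and 0.22 between runs, beside a root mean square SE of 0.24. No run held both a bin called higher and a bin called lower. Steps of at least 2-fold in the change were found at 68 of 2997 borders (2.27%, against 1.85% of all borders). Of the 1292 runs whose bins all had enough reads, 125 had every bin above 0 (9.67%), 310 every bin below 0 (24.0%) and 857 had bins on both sides.

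The 15 higher bins lay in 14 runs and were low in activity in both pPGK libraries at the median. In 9 of them 20% or more of the pPGK reporter reads were left out for low mapping quality, and the part of this was not tested. Of the 15, 13 were below input with pPGK and 11 with SCP1, and none was above input in any library. Their median activity was -1.26 in pPGK_PMA_I and -2.61 with pPGK. The change divides by pPGK reporter reads, so picking high values favours bins low with pPGK, and these pPGK activities are descriptions. Chromosome 5, 109979001 to 109979500, had 139 reporter reads in pPGK_PMA_I, against 29 with pPGK, a log2 change of 2.11 (SE 0.33). It lay at -0.42 in pPGK_PMA_I and -2.53 with pPGK over 71 input reads, and at -4.13 with SCP1 and -1.08 with pR-Ea.

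One run held a pair of higher bins. On chromosome 4, in a run of 3 bins that ends at 154791500, the middle bin had 2829 reads in pPGK_PMA_I, against 1141 with pPGK (change 1.20, SE 0.13), and the last bin had 267, against 67 (1.87, SE 0.42). Activity of the middle bin was 0.32 (SE 0.13) in pPGK_PMA_I and -0.87 (SE 0.16) with pPGK, and that of the last bin 0.07 (SE 0.20) and -1.80 (SE 0.39). The last bin rests on 5 and 6 distinct positions. Of the reporter reads of the middle bin, 12.9% in pPGK_PMA_I and 48.2% with pPGK were left out for low mapping quality. In the last bin 39.7% and 60.4% were left out. Chromosome 15, 36859501 to 36860000, had 95 against 32 reads (1.43, SE 0.36), and chromosome 12, 86815001 to 86815500, had 231 against 83 (1.35, SE 0.23). Chromosome 11, 63232501 to 63233000, had 73 against 26 (1.34, SE 0.29), in the run whose next bin lost all of its SCP1 reporter reads to the mapping filter. The bin at 63232501 itself had 35.4% of pPGK_PMA_I and 78.7% of pPGK reporter reads left out. Chromosome 10, 40185001 to 40185500, had 375 against 152 (1.18, SE 0.21), with 90.8% of its pPGK reporter reads left out, and its change turned to -1.16 with no filter on the mapping score.

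Of the 53 lower bins, 44 had 20% or more of their pPGK reporter reads at positions left out for low mapping quality, with a median of 81.3%, against 2.07% over all member bins. In member bins with under 20% left out, 6 of 3227 were higher and 9 lower, against 147 and 32 of 24289 over all kept bins of that kind. The lower bins lay in 37 runs, 10 of which held 2 or more. The lowest was chromosome 2, 98507001 to 98507500, with 1606 reads in pPGK_PMA_I, against 64995 with pPGK (change -5.45, SE 0.37), on 26 and 27 positions. There 99.1% of pPGK_PMA_I and 95.9% of pPGK reporter reads were left out, and counting every position with a score of at least 30 in its own file turned the change to 0.47. The mapping quality of these bins and their change therefore cannot be told apart. The next lowest, at chromosome 9, 3000501 to 3001000, rested on 11 and 222 reads at 1 and 2 positions.

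Among the runs with several lower bins was chromosome 11, 82743501 to 82747000, where 4 of 7 bins were lower. Its mean activity was -1.60 in pPGK_PMA_I and -0.74 with pPGK, against 0.57 with SCP1 and 0.55 with pR-Ea, and 79.4% of the pPGK input reads were left out at its median bin. Chromosome 13, 69673001 to 69674500, had 2 of 3 bins lower with 1.64% of the pPGK input left out at its median bin, and its mean activity was -0.38 in pPGK_PMA_I and 0.38 with pPGK. These runs were named after their values were seen.

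The second and the third longest runs had a positive change in nearly every bin, though no bin passed the size for a call. Chromosome 15, 19638001 to 19647500, had 19 bins with a mean change of 0.45, between -0.31 and 0.83, of which 17 were above 0. Its mean activity was -1.47 with SCP1, -0.24 in pPGK_PMA_I, -0.70 with pPGK and -0.69 with pR-Ea, with 10, 3, 5 and 4 bins below input. Chromosome 3, 43741501 to 43750000, had 17 bins with a mean change of 0.44, between -0.19 and 0.91, of which 15 were above 0. Its mean activity was -1.10, -0.29, -0.73 and -0.61 in the same order, with 8, 3, 5 and 2 bins below input. The input of the pPGK libraries held 58 to 193 reads per bin in the run on chromosome 15 and 69 to 414 in the run on chromosome 3, and 11.1% and 9.21% of it was left out at the median bin.

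The longest run, on chromosome X, went the other way, with a mean change of -0.32 over its 20 bins and 1 bin called lower. That bin, 166433501 to 166434000, had 188 reads in pPGK_PMA_I, against 434 with pPGK (-1.31, SE 0.62). The run on chromosome 14 had a mean change of -0.04, between -0.32 and 0.35, and the run at chromosome X, 137584001 to 137590500, one of -0.17. The 12 bins of chromosome 17, 39980001 to 39986000, a run named for its range of activity, changed by -0.27 to 0.10 and by -0.13 on average. That run was not even in activity, with the bin at 39982001 at 0.23 (SE 0.06) with SCP1 and the bin at 39984501 at -2.12 (SE 0.19).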

How the data were processed

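The members and lists used here were chosen with earlier results of these data known. The build was mm9 and the tools named per the submitters' processing notes are bedtools 2.28.0, Bowtie2 and SAMtools. Their order is not given in the sources used here, nor are the other versions. The authors deposited a file for each of the 4 reporter libraries, with no header, that lists fragments of 315 bp with a score in column 5, read as mapping quality from its values, and whole-number counts in columns 7 and 8. No label names these columns. The reporter was taken to be column 7 and the input column 8, because column 8 was equal at all 5163548 positions shared by both pPGK files. Deposited counts belong to a 5′ end, which is listed on 2 lines when found on both strands, and was counted once, at its plus strand fragment.

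The deposited score was never under 30 with SCP1 or pR-Ea, whereas 65.8% of pPGK and 99.5% of pPGK_PMA_I reporter reads reached it. Members were found with the score of each file's own lines. Counts were then taken at positions that no file lists below 30, which left out 60.3% of pPGK and 22.7% of pPGK_PMA_I reporter reads in member bins. This left SCP1 with 52611797 reporter and 43310926 input reads, and in the same order gave 55455528 and 16783049 for pPGK_PMA_I, 45976566 and 16783049 for pPGK, and 49173843 and 18040605 for pR-Ea. Chromosomes 1 to 19, X and Y were used, and coordinates start at 1. The exact intervals cover counting error only and treat reads as independent, which PCR copies are not.

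Python 3.11.15, numpy 2.4.6, pandas 2.3.3, scipy 1.17.1 and matplotlib 3.10.9 were used. The size rule was fitted on all kept bins and tested on simulated counts with 200 changed bins. The changes were 4-fold, and the positions and input were those of SCP1. Changes near the 2-fold limit of the rule and the other libraries were not simulated. Nearly all of the changed bins were recovered. Where simulated reads varied between positions, some unchanged bins were called too. The SE interval then held the true value less often than its nominal level, so calls on few positions are uncertain. Runs are named by 4 rules: the 5 with most bins, up to 5 mixed runs of each library, the 5 widest with SCP1 and with pPGK and the 3 most even with SCP1 among runs with 200 or more input reads throughout. Bins are named by the 3 highest and 3 lowest of each library, and for the change the 8 highest and 5 lowest, by the end of the SE interval nearest to 0. Only some of the runs and bins so named are described, picked after their values were seen. Of the alternatives, 14 were planned and 3 were chosen after seeing the data.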

Additional observations from a re-analysis of the deposited data

Results flagged for a closer look

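In 2 of 4319 member bins, 1 library was called above input and another below it. For the same pair of promoters (SCP1 above, pR-Ea below) this held in 15 of all 30914 kept bins. The difference between the promoters was not tested. The other pairs of promoters had 0 member bins and 4 to 14 of all kept bins. The bin at chromosome 12, 110030501 to 110031000, the first of 4, was at 1.69 (SE 0.43) with SCP1 on 733 reporter and 178 input reads. With pR-Ea it was at -1.04 (SE 0.35) on 84 and 63 reads. The bin at chromosome 13, 95874501 to 95875000, the last of 3, was at 1.64 (SE 0.54) with SCP1 on 201 reporter and 50 input reads, and at -1.20 (SE 0.35) with pR-Ea on 122 and 103 reads. It was at 1.36 (SE 0.23) in pPGK_PMA_I and 0.79 (SE 0.35) with pPGK. Low mapping quality left out 18.95% of its reporter reads with SCP1, 13.3% in pPGK_PMA_I, 71.2% with pPGK and 35.45% with pR-Ea. Of its pPGK input, 87.0% was left out, and the part of this was not tested.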

How the results depend on the processing

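No paired analysis was possible because each group has 1 library. Of 289 alternative values of the main counts and medians, 173 stayed close, 115 moved and 1 changed sign. Of 419 values of named bins, 399 kept direction and call, 13 lost the call and 7 changed sign. The cause of a shift was not tested unless the alternative itself sets it, as with another threshold. Counts of bins rest on the threshold, on the mapping score and on a few positions with many reads.

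In the order SCP1, pPGK_PMA_I, pPGK and pR-Ea, bins above input at 1.5-fold numbered 567, 558, 556 and 573, and bins below 891, 951, 748 and 671, with 80, 142, 71 and 85 mixed runs. Over all kept bins the shares were 11.0%, 21.0%, 15.3% and 10.1% above and 24.3%, 18.2%, 16.8% and 18.5% below. Counting distinct positions gave 23, 7, 21 and 4 above, 110, 28, 35 and 27 below and, in the first 3 libraries, 0, 1 and 0 mixed. The shares of all kept bins were then 0.479%, 0.892%, 1.09% and 0.0759% above and 3.95%, 1.42%, 2.06% and 1.28% below. An input minimum of 100 gave 103, 51, 57 and 6 above, 229, 253, 201 and 115 below and 2, 1 and 1 mixed. A minimum of 25 made 2219 member runs with 7402 bins. It gave 343, 361, 273 and 86 above, 800, 863, 697 and 462 below and 17, 36, 15 and 3 mixed. There the shares of all kept bins were 4.05%, 9.78%, 4.70% and 1.28% above and 13.9%, 9.27%, 9.16% and 8.42% below. Leaving out bins with 20% or more of pPGK reads excluded, added after seeing the data, gave 259, 212, 182 and 116 below, 127 above with SCP1, and 5 mixed with SCP1 and 1 with pPGK. Over all kept bins of that kind 11.2%, 6.72%, 6.84% and 5.94% were below, and 3.66% above with SCP1. At least 10 positions in each count, also added, gave 5 mixed in pPGK_PMA_I.

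In pPGK_PMA_I the score of each file alone gave 306 above and 19 mixed, and no filter 780 and 39, with 2 mixed with pPGK under both. Scaling to all used positions gave 37 above, 875 below and 3 mixed in pPGK_PMA_I and 60 above with pPGK. Setting the median to 0 gave 303 above and 14 mixed with SCP1. Without the position with most reads SCP1 had 4 mixed, and a pseudocount of 10 gave 4 mixed with SCP1 and 19 above with pR-Ea. Shifting bins gave 9 mixed with pPGK, and 56 above and 3 mixed with pR-Ea. The plus strand gave 16, 30 and 16 mixed in SCP1, pPGK_PMA_I and pPGK, 205 above with pPGK and 47 with pR-Ea. The minus strand gave 21, 20 and 2 mixed in pPGK_PMA_I, pPGK and pR-Ea, 238 above with pPGK and 70 with pR-Ea. Over all kept bins the share above in pPGK_PMA_I was 14.4% with each file's own score and 26.7% with no filter. With pR-Ea it was 0.444% at a pseudocount of 10 and 0.925% with shifted bins. On the plus and minus strands it was 6.56% and 6.62% with pPGK, and 1.33% and 1.37% with pR-Ea.

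For the change, higher and lower bins numbered 38 and 25 with each file's own score, 127 and 332 with no filter, 3 and 3 over distinct positions, 125 and 230 at 1.5-fold, 3 and 31 at a minimum of 100, 34 and 99 at 25, 51 and 83 on the plus strand, 33 and 107 on the minus strand, and 6 and 8 without bins of low mapping quality. Higher bins numbered 24 without the top position and 25 with shifted bins, and lower bins 91 with scaling to all used positions. Over all kept bins 0.0637% were higher and 0.0796% lower over distinct positions. The shares were 5.33% and 2.55% at 1.5-fold, 0.643% and 0.351% at 100, and 1.11% and 0.673% at 25. They were 1.71% and 1.47% on the plus strand, 1.42% and 1.26% on the minus strand, and 0.571% and 0.130% without bins of low mapping quality. Higher bins were 0.741% without the top position and 0.752% with shifted bins. Runs with both numbered 9 with no filter, 6 at 1.5-fold, 4 on the plus and 1 on the minus strand. The median of members minus all kept bins was -0.12 with each file's own score and without the top position, -0.035 over distinct positions, -0.15 at a minimum of 25 and -0.090 on the plus strand. The middle minus outer difference was -0.18 with no filter, 0.00549 over distinct positions, -0.11 without the top position and -0.084 on the minus strand.

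Among named bins, the change at chromosome 2, 98507001, was 0.47 with each file's own score and 0.18 over distinct positions, and that at chromosome 10, 40185001, was -1.16 with no filter. Chromosome 9, 111550501, was at -0.019 in pPGK_PMA_I and -0.27 with pPGK over distinct positions, and at -0.20 and -0.21 on the minus strand.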
